A study of Mus musculus with 20 samples.

Results

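The genes described here are 9 markers of B and T lymphocytes, taken as a fixed list of gene symbols. Of these, 5 mark B cells (Cd79a, Cd79b, Ms4a1, Ighm and Igkc) and 4 mark T cells (Cd3e, Cd3g, Cd8a and Trbc2). Of the 9, 8 had a row of counts among the 15956 genes of the series, and Cd79a had none and was not analysed here. Of these 8 genes, 5 passed the filter on low counts (Cd79b, Ms4a1, Ighm, Igkc and Trbc2), whereas Cd3e, Cd3g and Cd8a did not.

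RNA was sequenced from left ventricular tissue of 20 male mice, 5 per diet. The NP mice ate a control diet of normal protein content, the LP mice a diet of low casein content in which carbohydrate made up the energy, the HF mice a high-fat diet of normal protein content, and the HF + LP mice a high-fat diet with the low casein content. The labels give an age of 18 months for all mice, while the study's methods describe a younger age at collection, and the sources used here name no strain. The mice were housed in groups, and the labels do not say which of them shared a cage. LP mice were the lightest at 32.6 ± 2.69 g (mean ± SD, n = 5 per group), followed by NP at 43.0 ± 7.82 g, HF + LP at 48.6 ± 5.93 g and HF at 58.9 ± 1.76 g. The labels give the tissue as left ventricular heart, and in such bulk tissue a level in these data cannot tell apart fewer cells of a type and less RNA in each of them.

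B cells carry a surface immunoglobulin whose signal passes through the Cd79a and Cd79b chains, and once they become plasma cells they secrete immunoglobulin and lose most surface markers. T cells recognise antigen with a receptor whose beta chain ends in a constant region from Trbc1 or Trbc2, and the Cd3 chains carry its signal into the cell. Cd8a encodes a co-receptor of cytotoxic T cells that is also present, together with Cd4, on most immature T cells of the thymus. The healthy heart holds few lymphocytes, and both B and T cells are known from the myocardium and from the fat and lymphoid tissue around it.

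Total counts lay between 12559607 and 23331907 per library, and the heart muscle genes of the ventricle were abundant in all of them. The summed level of 10 such genes was 41618 to 69215 CPM (counts scaled to a common library size after normalization by the trimmed mean of M values, TMM). In the genes described here 3 libraries stood apart. LP animal 20 had the highest level of all 8 members and also held genes of the thymus, such as Rag1 with 2191 counts against at most 4 in any other library, which the label of ventricle alone does not cover. LP animal 13 had the second highest Ighm and Igkc, and NP animal 6 had the third highest of both. LP animal 13 also had the lowest median correlation with the other libraries of its diet (r = 0.908), and its 6 atrial genes summed to 15355 CPM beside a median of 397 CPM in the 19 libraries other than LP animal 20. HF animal 1 had the next highest atrial sum, at 12149 CPM. The fits of the members that use LP libraries are therefore also given without LP animal 20 or without LP animals 13 and 20, and the gene lists and the correlations with other genes without both.

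**Figure D1:**
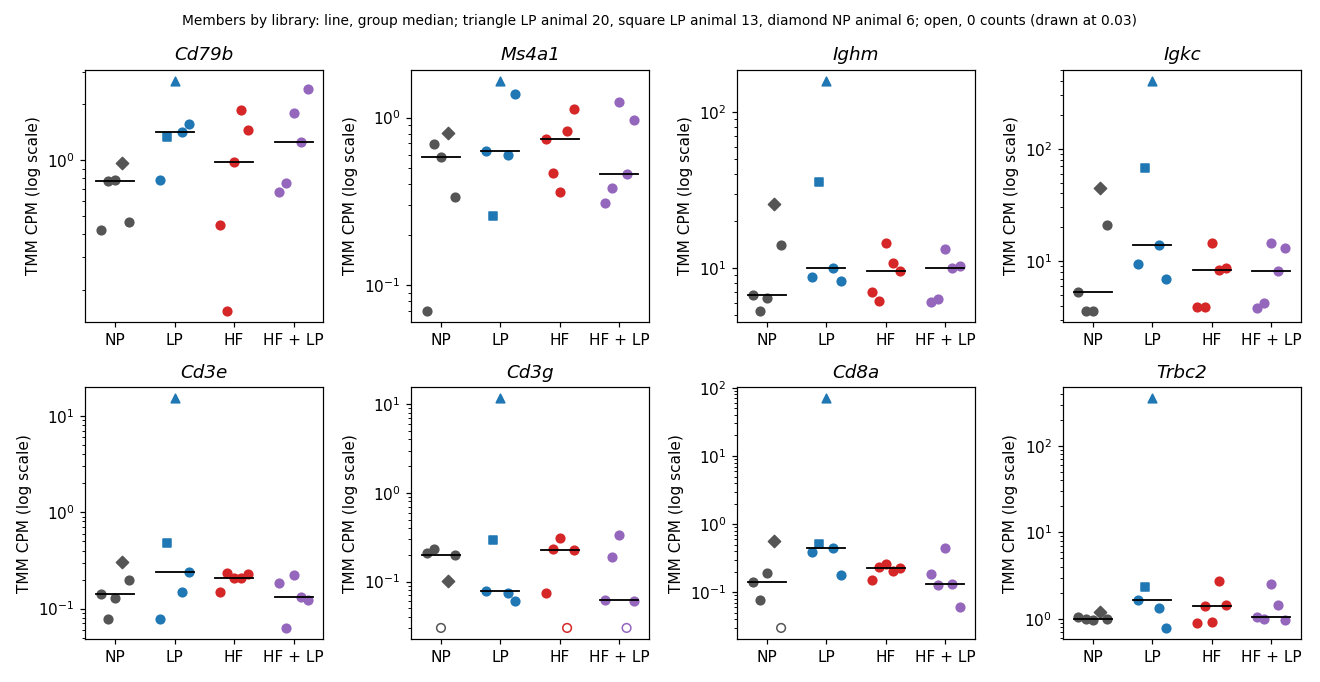
Level of the 8 measured members in each library, in TMM-scaled CPM on a log axis, by diet group, with the group median as a line and libraries with 0 counts drawn as open circles at a fixed low position. LP animal 20 (triangle) is the highest library in all 8 panels, at 354 CPM for Trbc2 and 2.66 CPM for Cd79b.

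Cd79b, the signalling chain of the B cell receptor (chromosome 11, 106311341 to 106314762, minus strand, GRCm38), had LP values that were spread more evenly over the libraries than those of the other members. Its level was 0.422, 0.773, 0.778, 0.963 and 0.467 CPM in NP animals 4, 5, 3, 6 and 8, and 0.784, 1.33, 2.66, 1.41 and 1.57 CPM in LP animals 2, 13, 20, 15 and 5. It was 0.450, 0.155, 0.978, 1.87 and 1.45 CPM in HF animals 1 to 5 and 0.675, 0.755, 1.79, 1.25 and 2.43 CPM in HF + LP animals 1 to 5. Of 5 LP libraries 4 lay above all NP libraries, and LP animal 2 lay within the range of NP, so that the groups overlapped. HF and HF + LP reached from within or below the NP values to above them. The counts behind these values were small, from 2 to 63 reads, and the exact 95% Poisson interval of the highest value (2.05 to 3.41 CPM, counting error only) held the value of HF + LP animal 5.

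Ms4a1 encodes CD20, a surface protein of mature B cells (chromosome 19, 11249675 to 11266241, minus strand). Its counts were 1, 9, 9, 16 and 5 in NP animals 4, 5, 3, 6 and 8, 8, 7, 39, 8 and 23 in the LP animals in the order above, 10, 6, 7, 16 and 25 in HF animals 1 to 5, and 5, 6, 22, 7 and 16 in HF + LP animals 1 to 5. LP animal 20 was the highest at 1.65 CPM, and LP animal 5 followed at 1.39 CPM. LP animal 13, the second highest in immunoglobulin transcripts, was the second lowest of all 20 libraries in Ms4a1, at 0.259 CPM. On the opposite strand the annotation places 4930526L06Rik across Ms4a1, and whether the counting used strand is not given in the sources used here.

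Ighm, the constant region of the heavy chain of IgM (chromosome 12, 113418558 to 113422730, minus strand), was present at higher levels and was more uneven. It was measured at 6.68, 5.33, 6.42, 25.6 and 14 CPM in NP animals 4, 5, 3, 6 and 8 and at 8.70, 35.4, 158, 10.03 and 8.22 CPM in LP animals 2, 13, 20, 15 and 5. In HF animals 1 to 5 it was 7.04, 6.13, 14.6, 10.7 and 9.63 CPM, and in HF + LP animals 1 to 5 it was 6.02, 6.36, 13.3, 10.03 and 10.3 CPM. Outside LP animals 13 and 20 and NP animal 6, the level of Ighm in the other 17 libraries kept to a range of 5.33 to 14.6 CPM, across all 4 diets. The count does not separate the membrane from the secreted form of the transcript.

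Igkc, the constant region of the kappa light chain (chromosome 6, 70726435 to 70726966, plus strand), followed the same libraries with a wider range. Its level was 5.27, 3.63, 3.63, 44.9 and 20.9 CPM in NP animals 4, 5, 3, 6 and 8 and 9.41, 67.9, 399, 13.96 and 6.89 CPM in LP animals 2, 13, 20, 15 and 5. It was 3.896, 3.88, 14.6, 8.40 and 8.77 CPM in HF animals 1 to 5 and 3.81, 4.28, 14.6, 8.18 and 13.1 CPM in HF + LP animals 1 to 5. LP animal 20 was 47.4-fold and LP animal 13 was 8.08-fold over the median of the respective other 19 libraries. The annotation places Gm30211 on the same strand across Igkc, and how shared reads were assigned is not given in the sources used here.

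Within a library, the proportion of immunoglobulin to surface B cell transcripts was not constant. Igkc counts were 2.52 times Ighm counts in LP animal 20 (exact 95% binomial interval 2.43 to 2.62), 1.92 times in LP animal 13 (1.77 to 2.08) and 1.75 times in NP animal 6 (1.57 to 1.96). In the other 17 libraries this ratio had a median of 0.816 and a range of 0.553 to 1.495. Igkc counts were 150 times Cd79b counts in LP animal 20 (interval 117 to 195), against a median of 6.53 and a range of 4.38 to 44.9 in the 17 libraries. The 3 libraries with the most immunoglobulin transcript thus also had the highest share of kappa over mu counts, while their Cd79b and Ms4a1 were not raised in proportion. Against Cd79b, LP animal 13 and NP animal 6 were little apart from the rest. Their Igkc counts were 50.9 and 46.6 times Cd79b counts, beside 44.9 times in NP animal 8. Their Ighm counts were 26.5 and 26.6 times Cd79b counts, within the 4.225 to 39.5 of the 17 libraries. LP animal 20 was 2.77-fold over the median of the others in Cd79b and 2.78-fold in Ms4a1, beside 16.4-fold in Ighm.

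The T cell genes had few reads in all libraries other than LP animal 20. Cd3e and Cd3g encode 2 chains of the T cell receptor complex and lie close together on chromosome 9 (44998740 to 45009627 and 44969572 to 44980431, both minus strand), and Cd8a lies on chromosome 6 (71373427 to 71379173, plus strand). The 250 bases before the RefSeq start of these 3 genes (build GRCm38.p6) are shown because the 3 genes were high in the same library. Of the 9 members, 4 had an entry in that table, including Cd79a. Capitals mark matches on either strand to CAGCTG or CACCTG (E box sequences, bound by E proteins), TGTGGT (bound by Runx factors), AGATAA (bound by Gata factors) or AGGAAG (bound by Ets factors).

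Cd3e (chr9:45009612-45009861, minus strand): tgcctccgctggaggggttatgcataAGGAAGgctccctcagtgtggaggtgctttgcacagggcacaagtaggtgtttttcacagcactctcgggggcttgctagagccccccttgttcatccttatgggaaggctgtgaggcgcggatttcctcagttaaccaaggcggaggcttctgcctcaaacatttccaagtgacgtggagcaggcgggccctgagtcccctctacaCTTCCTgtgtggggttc
Cd3g (chr9:44980432-44980681, minus strand): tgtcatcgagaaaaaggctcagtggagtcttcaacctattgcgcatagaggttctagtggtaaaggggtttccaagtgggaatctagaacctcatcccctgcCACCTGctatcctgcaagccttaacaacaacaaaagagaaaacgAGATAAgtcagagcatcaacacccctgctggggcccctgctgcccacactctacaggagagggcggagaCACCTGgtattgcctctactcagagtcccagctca
Cd8a (chr6:71373177-71373426, plus strand): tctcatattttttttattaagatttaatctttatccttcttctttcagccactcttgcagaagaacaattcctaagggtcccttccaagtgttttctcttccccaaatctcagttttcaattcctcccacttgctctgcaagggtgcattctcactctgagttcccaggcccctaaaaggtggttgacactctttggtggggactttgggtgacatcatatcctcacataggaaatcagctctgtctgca

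The Cd3e window held 2 matches to AGGAAG, at positions -224 and -17 counted back from the start, a sequence found in 29.5% of all 32851 promoter windows of that length. The Cd3g window held 2 matches to CACCTG, at -148 and -35, and 1 to AGATAA at -104, which were found in 17.2% and 9.99% of all windows. The Cd8a window held none of these letters. CAGCTG and TGTGGT, which 13% and 14% of all windows hold, were in none of the 3.

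Cd3e was counted with 2, 1, 2, 6 and 3 reads in NP animals 4, 5, 3, 6 and 8 and with 1, 13, 357, 2 and 4 reads in LP animals 2, 13, 20, 15 and 5. HF animals 1 to 5 had 2, 3, 4, 4 and 5 reads and HF + LP animals 1 to 5 had 3, 1, 4, 2 and 2 reads. In LP animal 20 this came to 15.1 CPM, 82.0-fold over the median of the other 19 libraries (0.184 CPM). The annotation places Gm48720 on the same strand and Gm48719 on the opposite strand of Cd3e.

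Cd3g was counted with 3, 3, 0, 2 and 3 reads in the NP animals and 1, 8, 274, 1 and 1 reads in the LP animals, in the same order. HF animals 1 to 5 had 1, 3, 6, 0 and 5 reads and HF + LP animals 1 to 5 had 1, 3, 6, 0 and 1 reads. A count of 0 allows a level of up to 0.195 CPM in NP animal 3, 0.156 CPM in HF animal 4 and 0.198 CPM in HF + LP animal 4. LP animal 20 reached 11.6 CPM and was 34.5-fold over the highest of the other 19.

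Cd8a was counted with 2, 1, 3, 11 and 0 reads in the NP animals and 5, 14, 1651, 6 and 3 reads in the LP animals. HF animals 1 to 5 had 2, 3, 5, 4 and 5 reads and HF + LP animals 1 to 5 had 3, 2, 8, 2 and 1 reads. The count of 0 in NP animal 8 allows up to 0.1999 CPM. LP animal 20 stood at 69.8 CPM, 125-fold over the next library, NP animal 6. The other LP animals 2, 13, 15 and 5 were at 0.392, 0.519, 0.446 and 0.181 CPM, inside the range of NP.

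Trbc2, a constant region of the T cell receptor beta chain (chromosome 6, 41546730 to 41548352, plus strand), lay within a few CPM in every library but one. Its level was 1.05, 1.00, 0.973, 1.217 and 1.00 CPM in NP animals 4, 5, 3, 6 and 8 and 1.65, 2.34, 354, 1.34 and 0.786 CPM in LP animals 2, 13, 20, 15 and 5. It was 0.899, 1.40, 0.926, 2.75 and 1.45 CPM in HF animals 1 to 5 and 1.04, 1.01, 2.52, 1.45 and 0.972 CPM in HF + LP animals 1 to 5. The 19 libraries other than LP animal 20 held 12 to 63 Trbc2 reads, and LP animal 20 held 8375. Trbc1 and Trbc2 are near-identical in coding sequence, so reads that fall there may have been counted for the other gene. In LP animal 20 the counts of Trbc2 were 23.5 times those of Cd3e (interval 21.1 to 26.2), against a median of 7.50 and a range of 3.25 to 21.0 in the 17 libraries outside the 3 named above.

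The mean of the LP group was set by a single library for 6 of the 8 members. LP animal 20 held 98.3% of the group's summed CPM of Trbc2, 97.8% of Cd8a, 95.8% of Cd3g, 94.1% of Cd3e, 80.2% of Igkc and 71.7% of Ighm. It held 36.5% of Ms4a1 and 34.3% of Cd79b, where 5 equal libraries would hold 20% each. In NP, animal 6 held 57.3% of Igkc, 57.5% of Cd8a and 44.1% of Ighm. In HF the highest share was 38.1%, for Cd79b in animal 4, and in HF + LP it was 51.9%, for Cd3g in animal 3 with 6 reads.

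**Figure D2:**
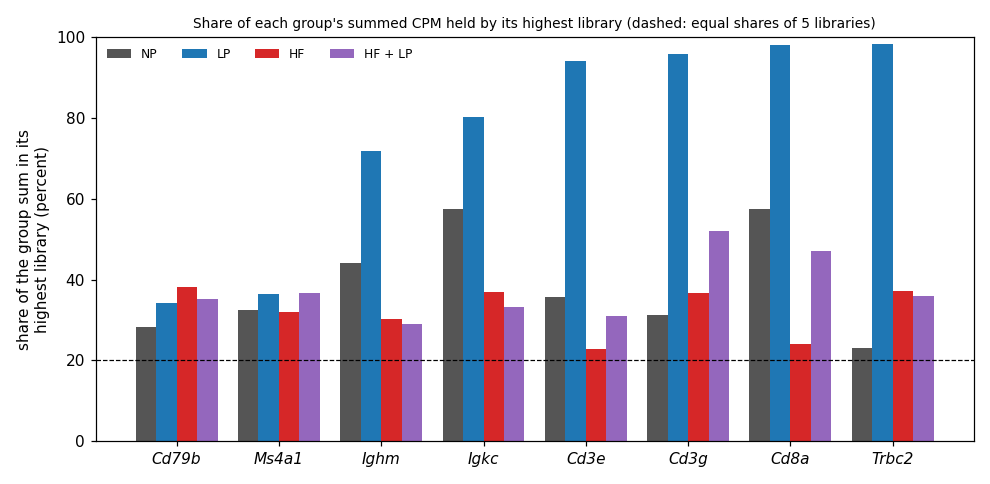
Share of each group's summed CPM that its highest library held, in percent, for the 8 members (bars, 1 per diet group of 5 libraries), with a dashed line at the share that equal libraries would hold. The LP bars reach 98.3% for Trbc2 and stay at 34.3% for Cd79b.

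Summed over the 4 measured B cell members, the level was 28.5 ± 26.7 CPM in NP, 146 ± 235 CPM in LP, 19.2 ± 8.06 CPM in HF and 20.0 ± 8.90 CPM in HF + LP (mean ± SD, n = 5). The LP mean was 42.1 ± 42.0 CPM without animal 20 (n = 4), and the NP mean was 17.5 ± 12.2 CPM without animal 6 (n = 4). The medians of all 4 groups lay between 12.4 and 26.0 CPM. Summed over the 4 T cell members, the level was 1.56 ± 0.356 CPM in NP, 91.9 ± 201 CPM in LP, 2.07 ± 0.702 CPM in HF and 1.86 ± 0.949 CPM in HF + LP. Without animal 20 the LP mean was 2.28 ± 0.989 CPM. The order of the groups by mean was LP first for every member, but by median it was HF first for Ms4a1 and Cd3g and HF + LP first for Ighm. In both sums all groups overlapped, and the means of neighbouring groups in the order differed by less than the larger of their 2 SDs.

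The comparison of LP with NP asks what a lower protein content does at normal fat content. Of the 5 members that could be tested, none was called, at an adjusted p under 0.01 with a mean normalized count over 50, where 0% of all 13991 genes tested were called. Of the 5, 4 had an unadjusted p under 0.05, against 7.23% of all genes, and all 4 were higher in LP. For all 8 members the groups overlapped, while 0.786% of all genes tested had groups that did not. These 4 were Trbc2, Igkc, Ighm and Cd79b, and their values rested on LP animal 20 to very different degrees. Without LP animal 20, however, none of the 5 members had an edgeR unadjusted p under 0.05, while 628 of 14045 genes did. The same held without LP animals 13 and 20, where 379 of 14141 genes did.

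Trbc2 had a log2 fold change of 6.09 (SE 1.41, edgeR adjusted p = 0.387) in LP against NP. Without LP animal 20 it was 0.55 (SE 0.36, adjusted p = 0.999). Igkc stood at 2.65 (SE 0.95, adjusted p = 0.582), at 0.66 without animal 20 and at -0.65 without animals 13 and 20. Ighm stood at 1.92 (SE 0.67, adjusted p = 0.568), at 0.44 without animal 20 and at -0.38 without both. The direction of both immunoglobulin genes in LP against NP therefore depended on these 2 libraries. Cd79b stood at 1.19 (SE 0.48, adjusted p = 0.634), at 0.90 without animal 20 and at 0.88 without both. Ms4a1 stood at 0.84 (SE 0.54, adjusted p = 0.808), at 0.48 without animal 20 and at 0.81 without both. Cd79b and Ms4a1, with mean normalized counts of 19.5 and 11.8, were below the minimum of the call in any case.

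**Figure D3:**
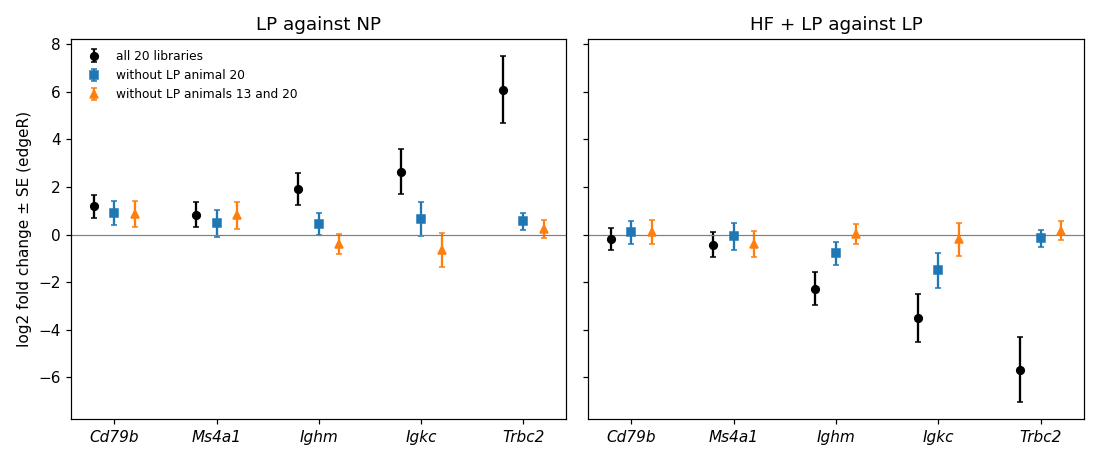
Log2 fold changes with SE from edgeR for the 5 tested members, in LP against NP (left) and HF + LP against LP (right), with all 20 libraries, without LP animal 20, and without LP animals 13 and 20. Trbc2 moves from 6.09 to 0.55 without animal 20, while Cd79b moves from 1.19 to 0.90.

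The comparison of HF with NP asks what a high fat content does at normal protein content, and it uses no LP library in its means. No member was called, while 0.264% of all genes were. No member had an unadjusted p under 0.05, against 13.1% of all genes, and none had groups that did not overlap, against 5.67%. The log2 fold changes were 0.56 (SE 0.49) for Cd79b, 0.50 (SE 0.55) for Ms4a1, -0.27 (SE 0.67) for Ighm, -0.98 (SE 0.93) for Igkc and 0.51 (SE 1.48) for Trbc2, with edgeR adjusted p between 0.717 and 0.935. The values of Ighm and Igkc rested on NP animal 6, without which they were 0.25 and -0.07. The other members moved with single libraries as well. Cd79b ran from 0.21 without HF animal 4 to 0.80 without HF animal 2, and Trbc2 from 0.15 without HF animal 4 to 0.65 without HF animal 3. Ms4a1 ran from 0.23 without NP animal 4 to 0.76 without NP animal 6. Although LP animal 20 did not enter this comparison, it entered the shared estimate of spread, and the SE of Trbc2 was 0.35 when it was left out of the fit.

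The comparison of HF + LP with HF asks what a lower protein content does at high fat content. No member was called, and 0% of all genes were. None had an unadjusted p under 0.05, against 4.84% of all genes, and none had groups without overlap, against 1.18%. The log2 fold changes were 0.45 (SE 0.47) for Cd79b, -0.08 (SE 0.53) for Ms4a1, -0.07 (SE 0.67) for Ighm, 0.14 (SE 0.94) for Igkc and -0.09 (SE 1.41) for Trbc2 (edgeR adjusted p = 0.999 for each). Without LP animal 20 in the fit, the SE of Trbc2 was 0.34 around the same value of -0.09. With single libraries left out, Cd79b ran from 0.15 without HF + LP animal 5 to 0.80 without HF animal 4.

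The comparison of HF + LP with LP asks what fat does at low protein content, and it shares the LP libraries with the comparison of LP with NP. No member was called, against 0.1% of all genes. Of the 5, 3 had an unadjusted p under 0.05, against 15.9% of all genes, and none had groups without overlap, against 1.87%. Trbc2 stood at -5.68 (SE 1.36, edgeR adjusted p = 0.0736), Igkc at -3.50 (SE 0.99, adjusted p = 0.115) and Ighm at -2.27 (SE 0.68, adjusted p = 0.127), all lower in HF + LP. Without LP animal 20 these were -0.15 for Trbc2, -1.504 for Igkc and -0.79 for Ighm, and without animals 13 and 20 they were 0.17, -0.20 and 0.03. Cd79b stood at -0.18 and Ms4a1 at -0.43, with edgeR adjusted p of 0.874 and 0.722. Without LP animal 20 Cd79b was at 0.10 and Ms4a1 at -0.07.

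The interaction of fat and protein asks whether the difference between the protein levels depended on fat. No member was called and 0% of all genes were. Trbc2 (-6.18, SE 1.96, edgeR adjusted p = 0.614) and Ighm (-1.99, SE 0.95, adjusted p = 0.691) had an unadjusted p under 0.05, against 7.17% of all genes. Without LP animal 20 these values were -0.65 for Trbc2 and -0.51 for Ighm, and without animals 13 and 20 they were -0.33 and 0.30.

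A test of any difference among the 4 diets called 1 member, Trbc2 (edgeR adjusted p = 0.00699), while 0.479% of all genes tested were called. Of the 5 members 3 had an unadjusted p under 0.05 (Trbc2, Igkc and Ighm), against 15.9% of all genes. The call of Trbc2 was not present without LP animal 20 (adjusted p = 0.795). It was also close to the threshold, with adjusted p between 0.00218 and 0.0168 when any other single library was left out. A robust fit, which gives outlying genes less weight, put it at an adjusted p of 0.0180. DESeq2 gave no p for Trbc2, and called Igkc (adjusted p = 0.00246). DESeq2 was not run without LP animal 20, where the edgeR adjusted p of Igkc was 0.492.

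For the 3 members below the count filter, a two-sided exact permutation test of log2 CPM was run in each of the 4 pairwise comparisons, 12 tests in all, added after the values had been seen. The smallest p was 0.0556, for Cd8a in HF + LP against LP, followed by 0.0714 for Cd3e in HF + LP against HF and 0.0873 for Cd8a in LP against NP. The smallest p that 5 against 5 libraries allow in this exact test is 0.00794. None of the 12 passed 0.05, and the libraries outside LP animal 20 held 0 to 14 reads of each of these genes. Without LP animal 20 the exact p in LP against NP was 0.143 for Cd8a, 0.556 for Cd3e and 0.833 for Cd3g. In HF + LP against LP it was 0.0873, 0.373 and 0.905. For the members past the filter, this test gave Cd79b an unadjusted p of 0.0159 in LP against NP, and 0.0397 without LP animal 20. No other of these members had an exact p under 0.05 in any comparison. An edgeR fit with no filter on low counts gave LP against NP log2 fold changes of 6.01 (SE 1.43, adjusted p = 0.247) for Cd8a, 4.14 (SE 1.08, adjusted p = 0.261) for Cd3e and 4.02 (SE 1.23, adjusted p = 0.312) for Cd3g. In the test of any diet difference that fit called Cd8a (edgeR adjusted p = 0.00716), of whose LP sum 97.8% lay in LP animal 20. An edgeR fit of these 3 genes without that library was not made.

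Pearson correlation over the 20 libraries was computed for all 28 pairs of the 8 members on log2 CPM. Of these, 18 pairs passed an adjusted permutation p of 0.05, all positive, including all 6 pairs of T cell members (r = 0.857 to 0.954), 4 of 6 pairs of B cell members and 8 of 16 mixed pairs. Without LP animal 20, 3 pairs passed and no pair of T cell members did, with r of 0.0812 to 0.535 among the latter. Leaving out LP animals 13 and 20, only the pair of Ighm and Igkc passed.

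Ighm and Igkc were correlated in all of these settings. Over 20 libraries Pearson r was 0.983 (permutation p = 1e-05, the smallest that 100000 permutations can give; adjusted p = 0.00014) and Spearman rho was 0.947 (permutation p = 1e-05, adjusted p = 0.00028). Without LP animals 13 and 20, the 2 libraries farthest from the median, r was 0.964. Cd79b and Ms4a1 had r = 0.612 (permutation p = 0.00409, adjusted p = 0.0104) and rho = 0.677 (permutation p = 0.00157, adjusted p = 0.0220), and r = 0.621 without HF animal 2 and LP animal 20. Ms4a1 and Igkc had r = 0.295 (permutation p = 0.207, adjusted p = 0.222) and rho = 0.191 (permutation p = 0.416, adjusted p = 0.466), with r = -0.10 without NP animal 4 and LP animal 20. Cd8a and Trbc2 had r = 0.954 (permutation p = 0.00042, adjusted p = 0.00294) and rho = 0.588 (permutation p = 0.00726, adjusted p = 0.0407), and r = 0.542 without LP animal 20 and NP animal 8. For Cd79b and Ms4a1 r was 0.543 (permutation p = 0.0167, adjusted p = 0.105) and rho 0.623 (permutation p = 0.00513, adjusted p = 0.0718) without LP animal 20. Leaving out LP animals 13 and 20, r was 0.616 (permutation p = 0.00678, adjusted p = 0.0949) and rho 0.703 (permutation p = 0.00136, adjusted p = 0.0190). For the T cell genes the high r rested on LP animal 20.

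Among the genes whose levels across the 20 libraries were most like the mean of the B cell members were Iglc1 (Spearman rho 0.853), Iglc2 (0.842), Ly6d (0.808) and Fcmr (0.782). Iglc1 and Iglc2 are constant regions of the lambda light chain, and Fcmr is a receptor for IgM. Without LP animals 13 and 20, rho was between 0.725 and 0.798 for these 4. Among those most like the T cell members were Bin1 (0.737), Btg2 (0.731), Nfya (0.722) and Tkt (0.720), none of which was on the list of T cell genes described next. With those libraries left out, their rho was 0.618 to 0.775.

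Other genes of both lineages were given as lists, and a highest mean is that of the CPM over all 20 libraries. Of 29 further T cell genes 27 had counts, and 26 of the 27 were highest in LP animal 20, against 11.8% of all genes tested. Their summed level was 898 CPM in LP animal 20 and 19.8 to 31.2 CPM in the other 19 libraries. Of the 27, 23 were at least 10-fold over the median of the others, as were 0.815% of all genes tested. Of the list, the highest means were of Thy1 (117 CPM against a median of 7.19 CPM), Bcl11b, a factor of T cell commitment (104 against 3.61 CPM), and Trbc1 (90.3 against 0.415 CPM). Lck, the kinase of the co-receptors (80.2 against 0.482 CPM), was the only gene of the list called in the test of any diet difference (edgeR adjusted p = 0.00947), and it was not called without LP animals 13 and 20 (adjusted p = 0.499). Cd4 and Cd8b1, named after their values were seen, were at 34.2 and 58.9 CPM against medians of 0.363 and 0.181 CPM.

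In LP against NP, 14 further T cell genes were tested, all had a positive log2 fold change with a median of 2.39 and 13 had an unadjusted p under 0.05, against 7.23% of all genes. With LP animals 13 and 20 left out, 6 were positive and 8 negative with a median of -0.04, and 1 had an unadjusted p under 0.05. No gene of the list was called in either fit, and the median log2 fold change of all genes tested was 0.02 with all 20 libraries.

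Of 24 further B lineage genes 23 had counts, and 16 of them were highest in LP animal 20, with a summed level of 100 CPM against 15.1 to 38.6 CPM in the others. Of the 23, 2 were at least 10-fold over the median, Iglc1 (9.89 against 0.542 CPM) and Ly6d (27.9 against 0.760 CPM). Those with the highest mean were Cd24a, Cd83 and Blnk, at 12.7, 9.01 and 2.66 CPM in LP animal 20 against medians of 3.39, 2.98 and 2.27 CPM. Pax5, a factor of B cell identity named after its values were seen, was at 1.61 against 0.396 CPM. In LP against NP all 20 tested genes of the list were positive, with a median log2 fold change of 1.18 and 11 with an unadjusted p under 0.05, against 7.23% of all genes. Without LP animals 13 and 20, 17 were positive with a median of 0.45 and none had an unadjusted p under 0.05, against 379 of all 14141 genes. In that fit 4 of 5 neutrophil genes (median 0.99, 3 with such a p), all 3 NK genes (median 0.54) and 5 of 6 platelet genes (median 0.65) were positive too. Negative values were found for 9 of 12 macrophage, 8 of 9 adipocyte and 6 of 8 proliferation genes. The part of these cells in the B lineage values was not tested.

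In HF against NP, where no LP library was compared, 19 of the 20 tested B lineage genes were positive, with a median log2 fold change of 0.44 and 3 with an unadjusted p under 0.05, a share near the 13.1% of all genes. All 12 pan-leukocyte genes, which mark white blood cells of any kind, were positive there too, with a median of 0.63 and 2 with an unadjusted p under 0.05, again near the 13.1%. In the same comparison all 12 macrophage genes were positive (median 0.48, 8 with an unadjusted p under 0.05), 4 of 5 neutrophil genes were positive (median 1.01, 3 with such a p), all 8 proliferation genes were positive (median 0.94, 0 with such a p), all 8 erythroid genes were positive (median 0.70, 3 with such a p), all 3 tested NK genes were positive (median 0.77, 1 with such a p) and all 10 ventricular genes were negative (median -0.20, 4 with such a p). Their part in the B lineage values was not tested. No gene of these lists was called with all 20 libraries. Without LP animals 13 and 20 in the fit, an unadjusted p under 0.05 was found for 5 B lineage, 9 pan-leukocyte, 9 macrophage, 3 neutrophil, 7 proliferation, 3 erythroid, 2 NK and 4 ventricular genes, and for 2334 of all 14141 genes tested. In that fit, which made 76 calls in this comparison, Lcp1, an actin-bundling protein of leukocytes (log2 fold change 0.78, SE 0.14, edgeR adjusted p = 0.00552), and Myh6, a myosin heavy chain of heart muscle (-0.70, SE 0.12, adjusted p = 0.00330), were called. The median of all genes tested was -0.00108.

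Of 13 plasma cell and immunoglobulin genes 9 had counts. Jchain, which joins immunoglobulin subunits in IgM and IgA, was at 27.1 CPM in LP animal 20, 3.188 CPM in LP animal 13 and 2.84 CPM in NP animal 6, against a median of 0.259 CPM in the 19 libraries other than LP animal 20. The 3 with the highest mean were Ighg2c (67.5 CPM in LP animal 20 against a median of 14.3 CPM), Prdm1 (2.88 against 4.21 CPM) and Sdc1 (4.31 against 3.05 CPM). Jchain was named after its values were seen, as was Igha, the heavy chain of IgA, at 11.5, 4.71 and 4.51 CPM in LP animals 20 and 13 and NP animal 6 against the median of 0.882 CPM. Prdm1, a factor of plasma cells, was thus below the median in LP animal 20, and Sdc1, a surface protein of plasma cells, was 1.41-fold over it. Other cells also express both. The further plasma cell genes Mzb1, Irf4 and Tnfrsf17 were 3.24-, 2.19- and 1.67-fold over the median there. Of the 9 genes, 7 of which passed the filter, 5 were highest in LP animal 20, against 11.8% of all genes tested. The file lists 0 variable segments of the immunoglobulin or T cell receptor genes.

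Genes of other cell types moved with the members in the same libraries. Of 9 thymus genes 7 had counts and 6 of them were highest in LP animal 20, at a summed level of 323 CPM against 2.70 to 13.2 CPM in the others. Rag1, which cuts the receptor genes of developing lymphocytes, had 2191 counts in LP animal 20 and 0 to 4 in the others. Dntt, which adds bases at the joints, had 1907 counts there and at most 8 elsewhere, and Ccl25, a chemokine of the thymus and gut, was at 52.0 CPM against a median of 1.47 CPM. Both genes of thymic epithelium, named after their values were seen, were high there as well. Prss16 had 1796 counts and Psmb11 had 225 in LP animal 20, where the others had at most 8 and 1. Ptcra and Foxn1, which mark thymocytes and thymic epithelium, had no row of counts. The 3 listed joining segments of the T cell receptor alpha locus, also named after seeing their values, had 565 (Traj18), 165 (Traj49) and 92 (Traj27) counts in LP animal 20 and at most 14, 2 and 6 in the others. The part of thymus RNA in the level of the members was not tested.

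All 8 proliferation genes were highest in LP animal 20, summing to 195 CPM against 11.5 to 47.8 CPM, and Top2a (73.2 against a median of 4.49 CPM), Stmn1 and Ube2c had the highest means over the 20 libraries. All 12 pan-leukocyte genes, of which Lcp1, Laptm5 and Arhgdib had the highest means, were highest in LP animal 20 too, at 354 CPM against 69.4 to 132 CPM. The most abundant of them in that library was Ptprc, named after its values were seen, at 71.1 against a median of 8.23 CPM. The 7 measured genes of NK and cytotoxic cells summed to 19.4 CPM against 2.74 to 8.78 CPM, with the highest means in Ccl5, Gzma and Nkg7. Macrophage, platelet, neutrophil and lymphatic genes were within the range of the other libraries. The 12 macrophage genes summed to 420 CPM in LP animal 20 and to 287 to 649 CPM in the others, with Lyz2, C1qa and Csf1r highest in mean. The 7 lymphoid stroma and lymphatic genes with counts summed to 203 CPM against 177 to 256 CPM, with Prox1, Cr1l and Lyve1 highest in mean, the 6 platelet genes (Pf4, Ppbp and Itga2b highest in mean) to 64.3 against 48.1 to 104 CPM and the 7 neutrophil genes (S100a9, S100a8 and Mmp9 highest in mean) to 14.4 against 6.37 to 27.8 CPM. The 10 ventricular genes, with the highest means in Actc1, Myl3 and Myl2, summed to 44292 CPM in LP animal 20 and to 41618 CPM in LP animal 13, the 2 lowest of all libraries.

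**Figure D4:**
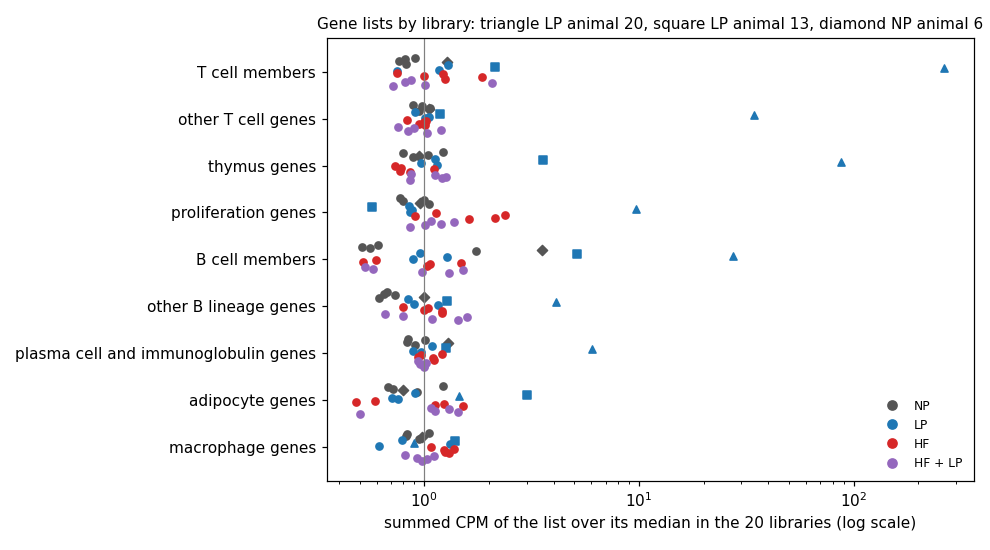
Summed CPM of 9 gene lists in each of the 20 libraries, as a multiple of the list's median over the libraries on a log axis, coloured by diet. LP animal 20 (triangle) stands far right in the T cell, thymus and proliferation lists and lies within the other libraries in the macrophage list, while LP animal 13 (square) and NP animal 6 (diamond) stand out in the B cell members.

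The 9 adipocyte genes summed to 2256 CPM in LP animal 13, 1088 CPM in LP animal 20 and 601 CPM in NP animal 6, against a median of 698 CPM in the libraries other than LP animal 20. NP animal 6 was thus below the median in the sum, with Fabp4 at 549 against 670 CPM and Ucp1 at 0.101 against 0.352 CPM, while its median fold over the 9 genes was 11.9. Adipoq, the hormone gene adiponectin of fat cells, was chosen after its values were seen and was at 71.2 CPM in LP animal 13, 28.3 CPM in LP animal 20, 16.5 CPM in HF animal 3, 11.9 CPM in NP animal 6 and 5.20 CPM in NP animal 8. These 5 were the highest of all 20, and 4 of them were also the 4 highest in Igkc. Of the 9 adipocyte genes 8 were highest in LP animal 13, and 8 were at least 10-fold over the median in LP animal 20, the exception being Fabp4, which is also expressed in capillary endothelium.

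Since Adipoq was chosen for its pattern, its correlations with the 8 members over the 20 libraries (log2 CPM) are given as a description, with no test. Pearson r was 0.807 for Igkc and 0.777 for Ighm, Spearman rho was 0.734 and 0.704, and r was 0.7104 and 0.704 without LP animals 13 and 20. As deviations from the diet group means, r was 0.793 for Igkc and 0.765 for Ighm. For Cd79b r was 0.241, and 0.02 without LP animals 13 and 20, and for Ms4a1 it was -0.05 and -0.10. Among the T cell members r was 0.417 to 0.567, and -0.19 to 0.42 without them. The part of adipose tissue in the level of these genes was not tested.

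**Figure D5:**
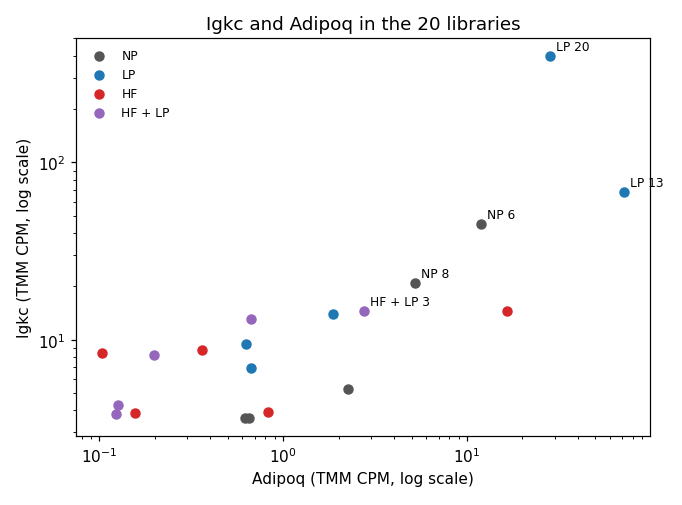
Igkc against Adipoq in the 20 libraries, both in TMM-scaled CPM on log axes and coloured by diet, with the 5 libraries highest in Igkc named. LP animal 13 and LP animal 20 lie at 71.2 and 28.3 CPM of Adipoq and 67.9 and 399 CPM of Igkc.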

How the data were processed

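Left ventricular RNA of 20 mice (5 per diet) was measured by QuantSeq 3′ sequencing, which counts transcript ends, and longer transcripts therefore give no more counts. Alignment was done by the authors in the BlueBee software, and the deposited values are raw counts for each Ensembl gene. The submitters' processing notes name GRCm38 and DESeq2 1.22.2, and the annotation and the counting program are not given in the sources used here. No listed gene had fewer than 60 counts over the libraries. Symbols were found for 15917 of the 15956 genes, and coordinates are those of GENCODE M21.

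Counts were analysed with edgeR 4.0.16 in R 4.3.3, with filterByExpr by diet (13991 genes kept), TMM scaling, and a quasi-likelihood fit to all 20 libraries. Values were adjusted by Benjamini-Hochberg over all genes tested, and SE were derived from the F statistic. A call needed both a mean normalized count over 50 and an adjusted p below 0.01. CPM were counts scaled to the TMM-corrected library size, and log2 CPM used a prior count of 2. The test was tried on simulated counts. Intervals and the limit of 3 counts for a count of 0 cover counting error only. The labels number different mice, and p-values measure the spread between these mice. The title of LP animal 5 alone adds sample 2, and what this marks is not given in the sources used here.

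All members are named, and from each list of marker genes the 3 most abundant (by mean CPM) and any gene called with all 20 libraries or without LP animals 13 and 20, and the 5 genes most like the B and the T cell members, of which 1 each is not reported here. The members and lists were chosen with earlier results of these data known. For 4 further lists the genes in brackets have the highest means over all libraries. In LP animal 20 the 8 erythroid genes (Hbb-bs, Hba-a1 and Hba-a2) summed to 12917 CPM (3586 to 18496 in the others), the 10 MHC class II genes (H2-Aa, Cd74 and H2-Eb1) to 593 CPM (155 to 558), the 9 adipocyte genes (Fabp4, Ucp1 and Cfd) to 1088 CPM (363 to 2256) and the 6 atrial genes (Nppa, Myl7 and Myl4, with Bmp10 called in the test of any diet difference) to 1701 CPM (92.4 to 15355). Alternatives were RLE size factors, DESeq2 1.42.0, other filters and thresholds, a robust fit, a covariate for the leading digit of each library's name, a block for animal numbers, fits to the compared groups only, and each library left out. Leaving out LP animal 20 or animals 13 and 20 together where not planned, the exact tests, and the correlations with Adipoq were added after the data were seen.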

Additional observations from a re-analysis of the deposited data

Results flagged for a closer look

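Within each diet group of 5 libraries, the gap between the most extreme library and its neighbour was compared with the range (Dixon's criterion, 0.71) for the 8 members and both sums. Of 40 groups 10 passed. Chance gives about 1 in 20 for independent normal values, which these are not, since the sums repeat the members and the same libraries enter each. Of the 10, 8 were in LP animal 20, which was set apart for Ighm (158 CPM), Igkc (399 CPM), Cd3e (15.1 CPM), Cd3g (11.6 CPM), Cd8a (69.8 CPM), Trbc2 (354 CPM), the summed B cell members (561 CPM) and the summed T cell members (451 CPM). Cd79b and Ms4a1 in the same library did not pass. The summed T cell members also set apart NP animal 6 (2.18 CPM) and HF + LP animal 3 (3.53 CPM), at levels that rest on few reads.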

How the results depend on the processing

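The number of members called in the test of any diet difference was 1 with all libraries. It was 2 with no filter on low counts (73 calls among 15956 genes), 2 at an adjusted p under 0.05 with or without the minimum of the mean count (252 and 336 among 13991), and 0 in the robust fit, with the library name covariate and without LP animals 13 and 20. Leaving out 1 library at a time gave 0 to 1, and in the pairwise comparisons and the interaction 0 throughout. The number of correlated pairs was 28 on CPM in place of log2 CPM, 3 without LP animal 20 and 1 without LP animals 13 and 20. Without Ighm and Igkc the B cell sum was 1.18 CPM in NP, 2.46 CPM in LP, 1.69 CPM in HF and 2.05 CPM in HF + LP, and without Trbc2 the T cell sum was 0.513, 19.9, 0.588 and 0.465 CPM. The cause was not tested.

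The following log2 fold changes turned sign. With the library name covariate Ighm in HF against NP was 0.0933. In the fit without LP animals 13 and 20, LP against NP was -0.38 for Ighm and -0.65 for Igkc, HF + LP against LP was 0.11 for Cd79b, 0.0267 for Ighm and 0.17 for Trbc2, and the interaction was 0.30 for Ighm and 0.79 for Igkc. With single libraries left out, Ighm in HF against NP ran from -0.47 to 0.25, Cd79b in HF + LP against LP from -0.48 to 0.10, and in HF + LP against HF Ms4a1 ran from -0.46 to 0.17, Ighm from -0.28 to 0.13, Igkc from -0.17 to 0.47 and Trbc2 from -0.46 to 0.26.

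The labels do not say that animal numbers pair the samples, and the few shared numbers cannot decide it. The mean correlation of same-numbered deviations was -0.04 for HF + LP with HF (5 shared numbers, -0.55 to 0.48), -0.24 for HF with NP (3), 0.18 for HF + LP with LP (2) and 0.21 for LP with NP (1). With the number as a replicate block 0 members were called. HF against NP was then 0.88 for Ighm and 1.225 for Igkc, and HF + LP against LP was 0.13 for Cd79b and 0.0883 for Trbc2. NP animals 6 and 8 and LP animals 13, 15 and 20 have numbers that no other library has. The block gives each of them a term of its own, so they no longer enter the differences between diets. Values with the block therefore also leave out these libraries. Over all genes the block left 2 calls in HF against NP and 0 in HF + LP against LP, where the fit without it made 37 and 14. DESeq2 made 159 and 84, an adjusted p under 0.05 gave 157 and 45, fits to the compared groups 61 and 0, and leaving out LP animals 13 and 20 gave 76 and 4. For any diet difference (67 calls) DESeq2 made 327, the block 2, the covariate 38 and an adjusted p under 0.05 252. Where the main fit made 0 calls, DESeq2 made 13 in HF + LP against HF, all lower, 4 in LP against NP and 1 in the interaction. Of the members 0 were among them. Low counts of Cd3e, Cd3g and Cd8a limit what can be seen in those genes.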

Other observations

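The lambda light chain genes followed the kappa chain in LP animal 20 at a smaller fold. Iglc1, Iglc2 and Iglc3 were at 9.89, 3.47 and 3.51 CPM there against medians of 0.542, 0.467 and 0.544 CPM in the other 19 libraries. Ighg2b, the heavy chain of an IgG subclass, had 901 counts in LP animal 20 and at most 28 in any other library. Ighd, the heavy chain of IgD on naive B cells, was at 2.58 CPM there, below the highest of the others (3.03 CPM). These genes were named after their values were seen.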
